A study of Mus musculus with 4 samples.

Results

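The glycolysis enzymes examined here are the products of 10 genes that carry glucose to lactate, Hk1, Hk2, Pfkl, Pfkp, Aldoa, Gapdh, Pgk1, Pgam1, Eno1 and Ldha. Their features were chosen by symbol, as every feature of the array whose platform annotation names 1 of these genes, and the rule uses no measured value, although the list of genes was drawn up with earlier results of these data known. Of 45018 features 28 qualified. They represent 9 of the 10 genes, because no feature carried the symbol Eno1 in the annotation used here, so that enolase 1 was not analysed. Of the 28 features 27 had a value on every array, and all 9 genes could be tested.

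Total RNA of Mll1-/- mouse embryonic fibroblasts was hybridised against total RNA of wild-type (wt) fibroblasts on 4 two-colour expression arrays. Such fibroblasts are mesenchymal cells cultured from the mouse embryo. The enzyme encoded by Mll1 (current symbol Kmt2a) methylates lysine 4 of histone H3. Both kinds of cell are called cell lines, and both grew in DMEM with 10% FBS. The labels do not say how many lines or cultures there were, so genotype and cell line cannot be told apart, and p-values measure the spread between arrays, which may be technical. Dyes were swapped, with the Mll1-/- RNA in Cy5 on arrays 1 and 3 and in Cy3 on the other 2. Between 31603 and 37425 features held a value on an array, and 14222 genes had a complete feature. All values are taken as log2 ratios, although the log base is not stated and was inferred from the spread of values. On this scale 0 means equal signal in both lines and 1 means a 2-fold difference. No level of a gene in either line can be read from the ratios. No source states which line is on top of the ratio. Mll1-/- over wild type is the likely direction, because the titles name the mutant first and because Kmt2a, measured by 1 feature, had −1.61, −1.58, −1.01 and −0.78 on arrays 1 to 4. If the ratios ran the other way, every rise and fall below would change places. In such bulk RNA fewer cells of a type and less RNA per cell cannot be told apart.

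Glycolysis splits glucose into pyruvate in the cytosol and yields ATP and NADH, and lactate dehydrogenase then turns pyruvate into lactate and returns NAD+. Hexokinase and phosphofructokinase catalyse committing, regulated steps, whereas aldolase, GAPDH, phosphoglycerate kinase, phosphoglycerate mutase and enolase work close to equilibrium and are abundant in most cells. Many of these genes are textbook targets of the hypoxia-inducible factor HIF-1 and of Myc. Proliferating fibroblasts in culture are known to use glycolysis even with oxygen present.

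The mean log2 ratios of the 9 measured genes lay mostly close to 0, with Pfkp farthest from it. The median SD over the arrays was 0.25 for the members and 0.17 for all genes tested. A mean near 0 therefore does not show equal signal in both lines, and several such means average arrays of opposite sign. Pfkp rose 1.87-fold in the Mll1-/- line, while Pfkl and Hk2 fell 1.27-fold and 1.23-fold. Ldha was 1.17-fold higher, a call that several settings did not keep. Hk1, Aldoa, Gapdh, Pgk1 and Pgam1 did not pass the test. With a threshold of adjusted p under 0.05 (limma, dye effect fitted per gene, Benjamini-Hochberg over 14222 genes), 2 members were higher and 2 lower, or 44.4% of the 9, against a background of 29.1% of all genes called higher, 30.1% called lower and 59.2% called in either direction. This fit treats the 4 arrays as independent. What it left unexplained correlated at 0.73 within arrays 1 and 2 and within arrays 3 and 4, so its p-values may be too small. The labels do not name these pairs. With arrays 1 and 2, and arrays 3 and 4, averaged first, Pfkp was the only member called higher and Pfkl the only one called lower. In that setting 18.9% of all genes were higher, 20.6% lower and 39.5% either. With the same pairs as a random block Pfkp was higher and Hk2 and Pfkl lower, where 21.9% of all genes were higher, 22.9% lower and 44.8% either. Of the 27 complete member features 4 were higher and 2 lower, where 29.9% of all features were higher, 29.7% lower and 59.6% either. The 21 features not called included 11 of Pgk1 and 5 of Hk1, so this count weighs those genes most. None of the 9 passed with a change of at least 2-fold, against 14.4% of all genes. The median absolute log2 ratio was 0.22 over the members and 0.34 over all genes tested, and 8 of the 9 members (88.9%) had an absolute log2 ratio under 0.35, against 51.5% of all genes. The median signed ratio was 0.02 over the members and −0.00074 over all genes.

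**Figure D1:**
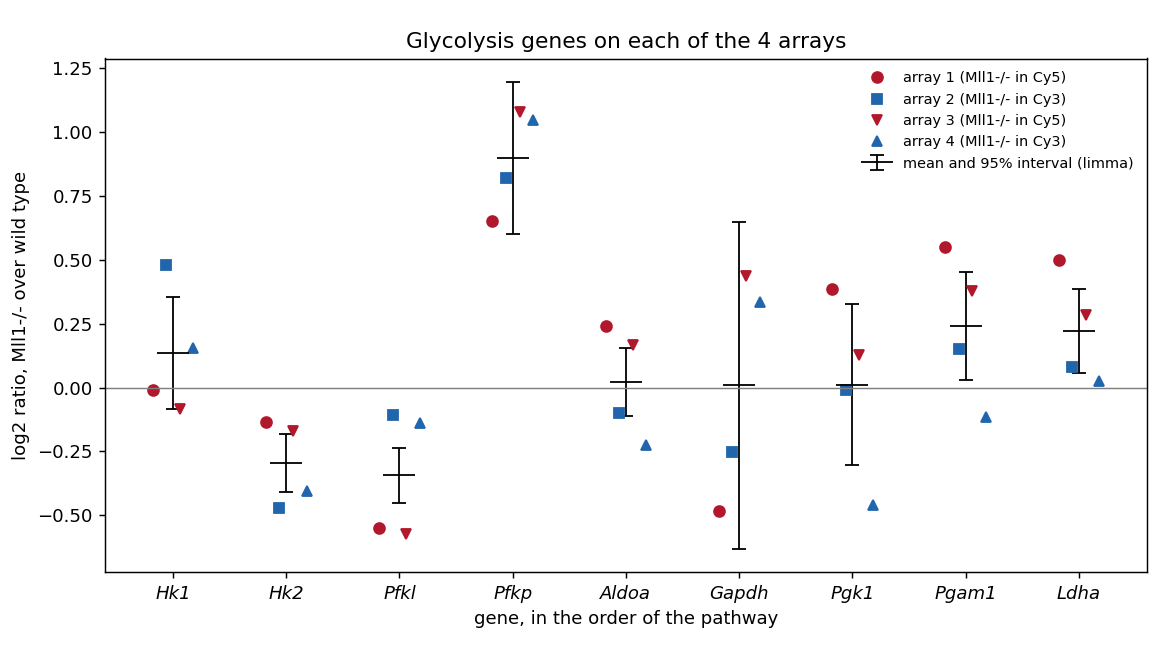
Log2 ratio of Mll1-/- over wild-type signal (vertical axis) of each measured gene (horizontal axis) on each of the 4 arrays, red where the Mll1-/- RNA carried Cy5 and blue where it carried Cy3, with the mean and the 95% interval of the limma fit in black. Pfkp lies between 0.65 and 1.08 on all arrays, Hk2 and Pfkl lie below 0 on all arrays, and the red and blue points of Hk1, Hk2, Pfkl, Aldoa, Pgk1, Pgam1 and Ldha separate by dye.

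Phosphofructokinase, which phosphorylates fructose 6-phosphate, is assembled from liver, platelet and muscle type subunits encoded by Pfkl, Pfkp and Pfkm. Because Pfkp and Pfkl changed in opposite directions, the 250 bases upstream of their RefSeq transcription starts are shown, together with those of the upstream start of Ldha, a textbook HIF-1 target. Sequences are from RefSeq on GRCm38.p6 and run 5′ to 3′ on the gene's strand. Capitals mark the letters ACGTG or GCGTG, the core of hypoxia response elements, on either strand. The E-box CACGTG, which Myc and the glucose-sensing factor MondoA (gene Mlxip) bind, contains ACGTG on both strands.
Pfkp, chr13:6648772-6649021, minus strand: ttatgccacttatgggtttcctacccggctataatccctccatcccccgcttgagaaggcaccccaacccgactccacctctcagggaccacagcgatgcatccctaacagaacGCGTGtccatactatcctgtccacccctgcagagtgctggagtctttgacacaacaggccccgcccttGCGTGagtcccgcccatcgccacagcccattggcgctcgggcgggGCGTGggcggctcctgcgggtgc
Pfkl, chr10:78009808-78010057, minus strand: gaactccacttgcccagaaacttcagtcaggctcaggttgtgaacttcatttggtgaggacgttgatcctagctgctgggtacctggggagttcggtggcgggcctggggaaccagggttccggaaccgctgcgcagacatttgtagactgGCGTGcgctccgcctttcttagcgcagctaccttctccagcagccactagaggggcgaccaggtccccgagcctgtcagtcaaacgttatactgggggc
Ldha, chr7:46845554-46845803, plus strand: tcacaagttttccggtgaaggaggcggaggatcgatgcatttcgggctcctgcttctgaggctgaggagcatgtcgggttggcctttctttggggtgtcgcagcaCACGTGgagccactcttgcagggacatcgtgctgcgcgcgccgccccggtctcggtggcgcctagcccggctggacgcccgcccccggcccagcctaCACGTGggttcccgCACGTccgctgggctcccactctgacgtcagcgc
The Pfkp window held GCGTG 3 times and the Pfkl window once, and neither held ACGTG. The Ldha window held CACGTG at 2 places and a further ACGTG on the minus strand. Over all 10 genes, including Eno1, the table gave 16 upstream windows. ACGTG occurred in 6 of these 16, GCGTG in 9 and CACGTG in 1, against 16.6%, 28.2% and 6.02% of 32851 windows of the same length over all genes. Some windows of Aldoa and of Eno1 overlap, so a site there may count in several windows. The CXXC domain of MLL1 is known to bind unmethylated CpG. The member windows held a median of 16.5 CpG, from 0 to 25, and all windows a median of 6. ACGTG and GCGTG each contain a CpG, and their shares above were not adjusted for CpG content. These letters describe the DNA, and no binding was measured here.

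Pfkp had log2 ratios of 0.65, 0.82, 1.08 and 1.05 on arrays 1 to 4. All arrays lay above 0, and arrays 3 and 4 lay above arrays 1 and 2. The mean was 0.90 ± 0.20 (SD, n = 4 arrays, as for all errors below; limma adjusted p = 0.00632). The size of the rise depended on the feature. Feature 24470 gave 1.21, 1.44, 1.18 and 1.47, with a mean of 1.32 ± 0.15 (limma adjusted p = 0.00072). Feature 18483, annotated to a cDNA record, gave 0.64, 0.89, 1.83 and 1.40 (limma adjusted p = 0.0264). Feature 12682, annotated to the same RefSeq mRNA as feature 24470, gave 0.10, 0.13, 0.22 and 0.27, a 1.13-fold rise (limma adjusted p = 0.0491). The 3 features thus shared their sign on every array and differed in size, and the annotation does not say which part of the transcript each one reads.

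Pfkl, the liver-type subunit, was measured by 1 feature, with −0.55, −0.11, −0.57 and −0.14 on arrays 1 to 4. All arrays lay below 0, and the values with the Mll1-/- RNA in Cy5 were the lower ones. The mean was −0.34 ± 0.25 (limma adjusted p = 0.00554), and without the dye term the call was lost (adjusted p = 0.0508). Pfkm, the muscle-type subunit and not among the 10, also fell, at −0.41 on each array, with an SD of 0.0033 (limma adjusted p = 0.00372). Among the 3 subunits the platelet type therefore rose and the other two fell.

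Hexokinase phosphorylates glucose on entry into the cell. Hk2, the inducible form of muscle and growing cells, was measured by 1 feature with −0.13, −0.47, −0.17 and −0.40. All arrays lay below 0, with the lower values where the Mll1-/- RNA carried Cy3, opposite to Pfkl. The mean was −0.29 ± 0.17 (limma adjusted p = 0.00867). The call was lost without any 1 of the 4 arrays (adjusted p from 0.0515 to 0.0638), with means from −0.31 to −0.28. It was also lost after averaging arrays 1 and 2, and 3 and 4 (adjusted p = 0.0624). Here and below, a fit without 1 array has less power for every gene. Over all genes it called at most 2860 higher and 3005 lower, instead of 4140 and 4275. Hk1, the broadly expressed form, averaged −0.01, 0.48, −0.08 and 0.15 over its 5 complete features. Arrays 2 and 4 lay above 0 and arrays 1 and 3 below it, and the mean of 0.13 ± 0.25 did not pass (limma adjusted p = 0.202, 95% interval −0.08 to 0.35). Of its 5 features 4 lay between 0.06 and 0.23, and feature 21622, annotated to a cDNA record, lay at −0.05. A sixth feature, 43766, was blank on arrays 1 and 3, where the Mll1-/- RNA carried Cy5, and gave 0.64 and −0.51 on arrays 2 and 4.

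Aldoa, the main aldolase outside liver and brain, averaged 0.24, −0.10, 0.17 and −0.22 over 2 features. Its sign followed the dye, positive with the Mll1-/- RNA in Cy5 and negative with it in Cy3, and the mean was 0.02 ± 0.22 (limma adjusted p = 0.706, 95% interval −0.11 to 0.16). Gapdh, which oxidises glyceraldehyde 3-phosphate and is widely used as a loading control, was read by 1 feature, annotated to a cDNA record. It had −0.48, −0.25, 0.44 and 0.34 on arrays 1 to 4. Arrays 1 and 2 lay below 0 and arrays 3 and 4 above it, so that Gapdh varied by pair of arrays and not by dye. Its mean was 0.01 ± 0.45 (limma adjusted p = 0.975), and its 95% interval from −0.63 to 0.65 was the widest of the 9 genes.

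Pgk1, the X-linked enzyme of the first ATP-yielding step, was read by 11 features. Their mean was 0.39 on array 1, −0.01 on array 2, 0.13 on array 3 and −0.46 on array 4. Within an array the features lay close together, with SDs between features from 0.05 to 0.09, whereas the SD of the gene over the arrays was 0.35. The mean over arrays was 0.01 ± 0.35 (limma adjusted p = 0.932, 95% interval −0.30 to 0.33), and none of the 11 features passed. Features of a gene share their arrays and are not replicates of the genotype. Pgam1, which moves the phosphate of phosphoglycerate, had 0.55, 0.15, 0.38 and −0.12 on 1 feature. Array 4 lay below 0 and the others above it, and the mean of 0.24 ± 0.29 did not pass (limma adjusted p = 0.0578).

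Ldha, the subunit of lactate dehydrogenase that prevails in muscle and tumours, averaged 0.50, 0.08, 0.28 and 0.03 on arrays 1 to 4. All arrays lay above 0, with a mean of 0.22 ± 0.22 (limma adjusted p = 0.0394). Its 2 features, both annotated to the same RefSeq mRNA, behaved differently. Feature 5536 gave 0.44, 0.40, 0.15 and 0.43 and passed by itself (mean 0.35, limma adjusted p = 0.0198). Feature 39946 gave 0.56, −0.24, 0.42 and −0.37, changed sign with the dye and did not pass (mean 0.091, limma adjusted p = 0.221). The call of the gene did not survive leaving out the dye term (adjusted p = 0.113) or any 1 array (adjusted p from 0.0653 to 0.160). Gapdh and Ldha are known for processed pseudogenes in the mouse, and the annotation does not show whether their features also bind such copies.

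**Figure D2:**
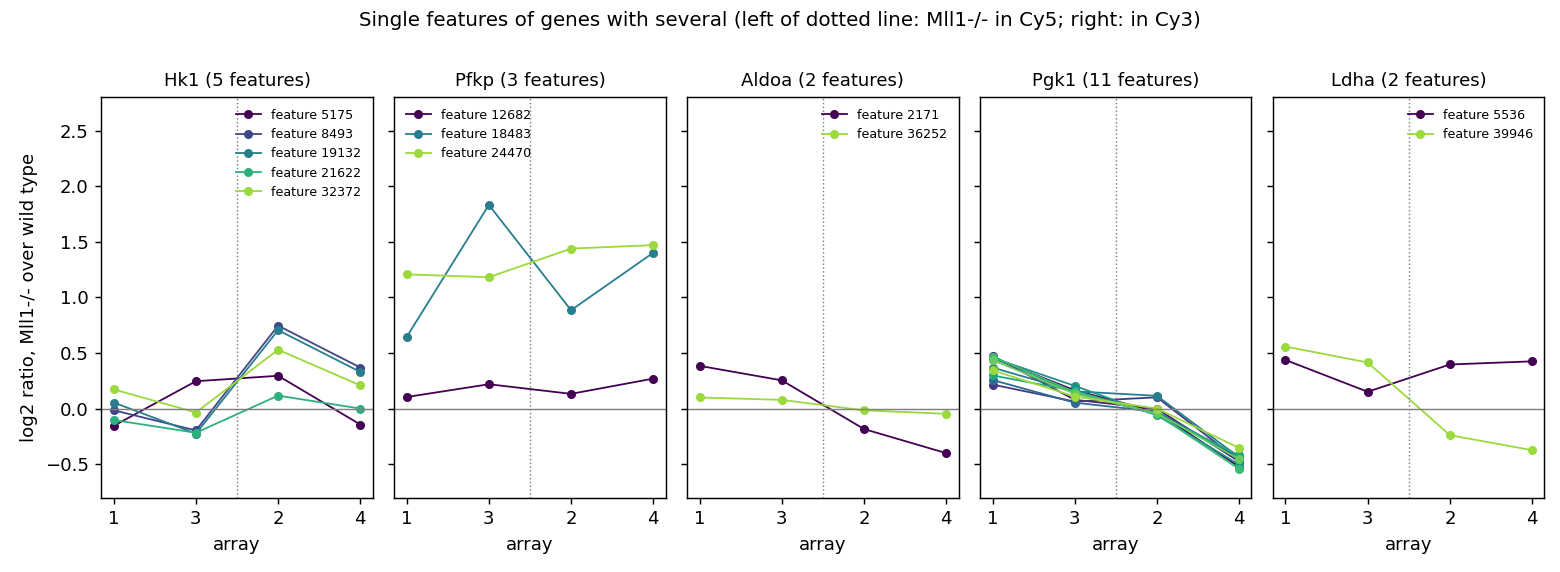
Log2 ratio of Mll1-/- over wild-type signal (vertical axis) of the single features of the 5 genes read by several, on each array (horizontal axis), with the arrays that carried the Mll1-/- RNA in Cy5 left of the dotted line and in Cy3 right of it. The 11 Pgk1 features run together, the 3 Pfkp features are all above 0 but at different heights, and Ldha feature 39946 lies above 0 on arrays 1 and 3 and below 0 on arrays 2 and 4.

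Dye orientation moved with the ratios of several members. The dye term had an unadjusted p under 0.05 in 5 of the 9 genes (Hk2, Pfkl, Aldoa, Pgam1 and Ldha), against 14.8% of all genes, and passed after adjustment in none of the 9 and in none of the 14222 genes (limma). Arrays with the Mll1-/- RNA in Cy5 exceeded those with it in Cy3 by 0.49 for Pgk1, 0.45 for Pgam1, 0.37 for Aldoa, 0.34 for Ldha and 0.28 for Hk2. The difference ran the other way for Pfkl (−0.44) and Hk1 (−0.36), and was small for Pfkp (−0.07) and Gapdh (−0.06). For Pfkp the mean was 0.87 on the Cy5 arrays and 0.93 on the Cy3 arrays, so the rise was as large in either orientation. For Ldha it was 0.39 on the Cy5 arrays and 0.05 on the Cy3 arrays. In all 5 of the 9 genes were higher on the Cy5 arrays, against 50.5% of all genes, as were 17 of the 27 member features, 11 of them of Pgk1, against 50.1% of all features. The part of the dye in these ratios was not tested beyond the fitted term. The log2 ratios had 1 sign on all arrays in 4 members (Hk2, Pfkl, Pfkp and Ldha), or 44.4%, against 66.5% of all genes.

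Of a list of 18 other isozymes of the pathway 13 could be tested, with a median of −0.31. Their median absolute log2 ratio was 0.41, against 0.22 over the members and 0.34 over all genes. Of the 13, 3 (23.1%) were higher and 6 (46.2%) lower, against 29.1% and 30.1% of all genes. In either direction 69.2% were called, against 59.2% of all genes. Ldhb, the heart-type subunit that favours lactate oxidation, had −4.56, −5.02, −4.28 and −4.60. Every array showed a deep fall, 24.5-fold on average (−4.61 ± 0.30, limma adjusted p = 0.000529), beside the 1.17-fold higher signal of Ldha. Hkdc1, a hexokinase-like gene, fell 5.99-fold (−2.58 ± 0.40, limma adjusted p = 0.00265). Eno3, the muscle-type enolase, had 1.10, 1.57, 1.15 and 1.67, a 2.59-fold rise (1.37 ± 0.29, limma adjusted p = 0.000757). Eno2, the neuronal enolase, fell 1.79-fold (−0.84 ± 0.23, limma adjusted p = 0.0066).

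Smaller changes were found in Tpi1, the triosephosphate isomerase (−0.31 ± 0.14), in Gapdhs, the sperm-specific GAPDH (−0.48 ± 0.14), in Bpgm, which makes 2,3-bisphosphoglycerate (0.28 ± 0.12), and in Pkm, the pyruvate kinase of most tissues (0.35 ± 0.24), with limma adjusted p-values from 0.0114 to 0.0467. With the array pairs (1 with 2, 3 with 4) as a random block Bpgm (adjusted p = 0.0763) and Pkm (0.0681) lost their calls, and both also lost them without each array in turn (0.0546 to 0.139 for Bpgm, 0.0683 to 0.147 for Pkm). After averaging those pairs Bpgm (0.102), Pkm (0.104) and Tpi1 (0.0758) lost their calls. Pkm also lost its call with arrays centred and scaled (0.0573) and with blanks allowed on 1 array (0.0581). Tpi1 also lost its call without array 1, 2 or 3 (0.0692 to 0.0952), and Gapdhs lost its call without array 4 (0.0541). The 3 Pkm features ran from −0.20 to 0.69. Hk3 (−0.32), Pgam2 (−0.04), Pklr (−0.05) and Aldoc (0.56) did not pass, and the 2 features of Aldoc lay at 0.05 and 1.07. Among 7 tested markers of skeletal and cardiac muscle, the tissues known for Eno3, 3 (42.9%) were higher and 1 (14.3%) lower in the Mll1-/- line. Of all genes 29.1% were higher and 30.1% lower. The sarcomere genes Tnnt2 (3.19 ± 0.29), Acta1 (2.49 ± 0.15) and Actc1 (2.45 ± 0.18) were higher on every array and by more than Eno3, Myog was lower (−0.79 ± 0.30), and Ckm, Myh3 and Myod1 did not pass. The part of muscle-like expression in the Eno3 ratio was not tested. Levels of Ldhb, Hkdc1, Eno2 and Eno3 are unknown, so a large ratio may come from a faint signal.

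**Figure D3:**
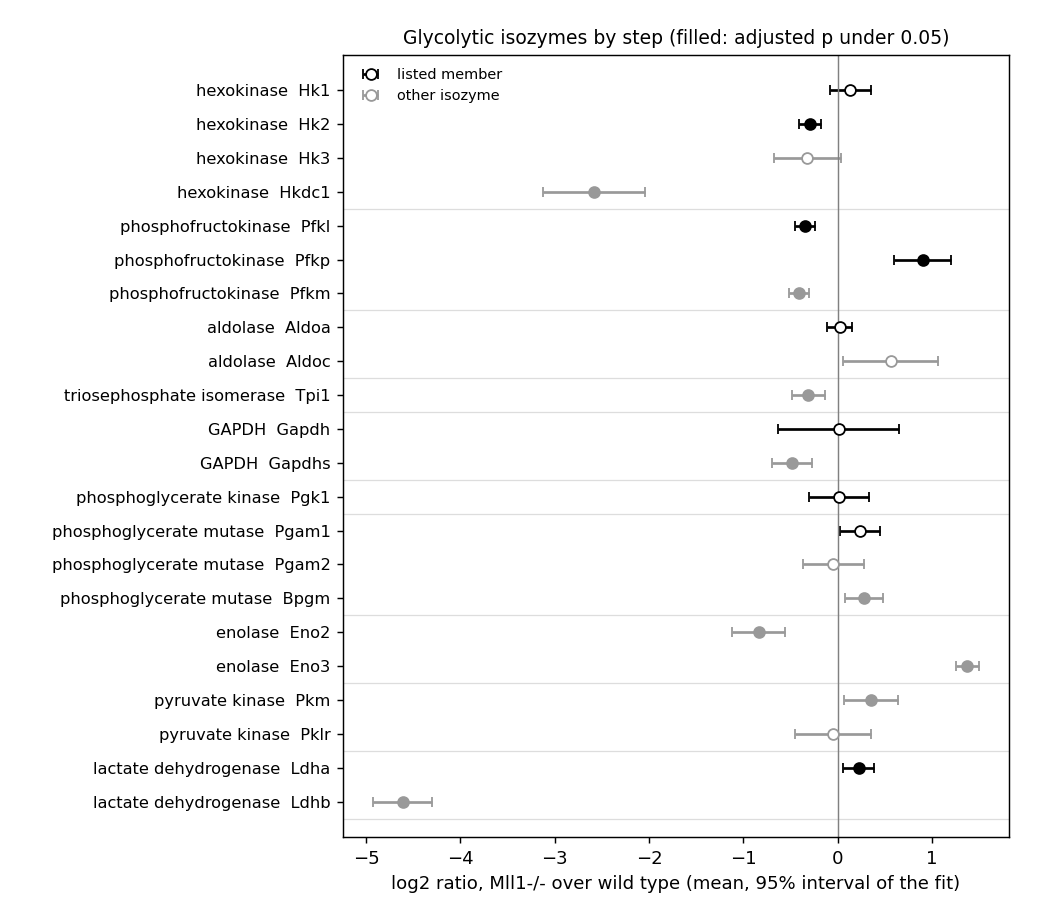
Mean log2 ratio of Mll1-/- over wild-type signal (horizontal axis) with the 95% interval of the limma fit for the tested isozymes of each glycolytic step (rows), black for the 9 listed genes and grey for the others, filled where the adjusted p is under 0.05. The listed genes sit between −0.34 and 0.90, while Ldhb lies at −4.61, Hkdc1 at −2.58 and Eno3 at 1.37.

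Transporters of glucose and lactate work on either side of the pathway, and their median absolute log2 ratio was 0.70. Of 16 tested transporter genes 3 (18.8%) were higher and 8 (50%) lower, against 29.1% and 30.1% of all genes. The median log2 ratio was −0.41. Slc16a3, the lactate exporter MCT4 of glycolytic cells, rose 10.5-fold, with 3.40, 3.18, 3.55 and 3.46 on the arrays (3.40 ± 0.16, limma adjusted p = 0.000509). Emb, which encodes embigin, a partner that carries monocarboxylate transporters to the cell surface, fell 9.30-fold (−3.22 ± 0.06, limma adjusted p = 0.000426). Slc16a1, the widely expressed lactate carrier MCT1, had −2.04, −1.62, −2.38 and −2.04, a 4.06-fold fall (limma adjusted p = 0.00178). Slc2a9, a urate and hexose transporter, fell 4.60-fold (−2.20 ± 0.12, limma adjusted p = 0.00074). Slc2a10 (0.71 ± 0.16) and the insulin-responsive Slc2a4 (0.64 ± 0.30) rose. Slc2a4 lost its call when arrays 1 with 2 and 3 with 4 were blocked (adjusted p = 0.0825) or averaged (0.0575), and without array 2 (0.117) or 4 (0.0825). The main glucose carrier of fibroblasts, Slc2a1, named outside the rule for naming genes and after its value was seen, lay at −0.25 ± 0.28 and did not pass (limma adjusted p = 0.0801).

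Of 13 tested genes that set the entry of pyruvate into mitochondria, 9 (69.2%) were lower and 2 (15.4%) higher, against 30.1% and 29.1% of all genes, with a median of −0.39. Pyruvate dehydrogenase kinases switch pyruvate dehydrogenase off. Of these, Pdk4 fell 9.97-fold (−3.32 ± 0.48, limma adjusted p = 0.00257) and Pdk1 2.42-fold (−1.28 ± 0.11, limma adjusted p = 0.000734). Pdp1, a phosphatase with the opposite action, fell 2.08-fold (−1.06 ± 0.12, limma adjusted p = 0.00109). The subunits of the enzyme itself moved both ways. Its E1 component is built from the products of Pdha1, which rose (0.82 ± 0.08), and Pdhb, which fell 1.93-fold (−0.95 ± 0.03, limma adjusted p = 0.00108) and is named outside the rule after its value was seen. The E2 subunit Dlat rose (0.28 ± 0.16), a call lost after averaging arrays 1 and 2, and 3 and 4 (adjusted p = 0.0732), and without each array in turn (0.0607 to 0.0723).

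Among 15 tested regulators of glycolysis 7 (46.7%) were lower and 2 (13.3%) higher, against 30.1% and 29.1% of all genes. Their median was −0.28. Pfkfb4 and Pfkfb2 encode enzymes that make and break fructose 2,6-bisphosphate, an activator of phosphofructokinase. Pfkfb4 rose 2.16-fold (1.11 ± 0.06, limma adjusted p = 0.00104) and Pfkfb2 fell 2.61-fold (−1.38 ± 0.24, limma adjusted p = 0.0036). Tigar, a fructose bisphosphatase induced by p53, was higher (0.26 ± 0.04). Arrdc4, an arrestin-domain gene induced by glucose (−1.26 ± 0.08) and Ppargc1a, a coactivator of mitochondrial genes (−0.84 ± 0.24), fell, with limma adjusted p-values of 0.00118 and 0.00925. Tigar lost its call after averaging arrays 1 and 2, and 3 and 4 (adjusted p = 0.0768). It also lost the call without each array in turn (0.0661 to 0.0718), with means from 0.26 to 0.27. Ppargc1a lost its call with those pairs as a random block (0.0541).

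HIF pathway genes and hypoxia targets outside glycolysis were called in 15 of 24 cases (62.5%, near the 59.2% of all genes), 4 higher and 11 lower (median −0.23). By direction, 45.8% were lower and 16.7% higher, against 30.1% and 29.1% of all genes. Hif1a, the oxygen-regulated subunit of HIF-1, had −1.39, −1.03, −1.07 and −0.89, a 2.13-fold fall (limma adjusted p = 0.00254). Epas1, which encodes HIF-2 alpha, rose 2.37-fold (1.24 ± 0.36, limma adjusted p = 0.00847), with 2 features at 0.79 and 1.70, the lower of which did not pass by itself (limma adjusted p = 0.0542). The vasoactive peptide gene Adm (−2.56 ± 0.66) and Ankrd37 (−1.27 ± 0.31), both known to be induced by hypoxia, fell, while Vegfa, a further hypoxia target, rose 1.64-fold (0.71 ± 0.12, higher on all 12 of its features). Hif1an, the HIF-1 inhibitor, rose 1.58-fold (0.66 ± 0.15). The genes named here were taken by rule from both directions, so they do not show the balance of the list.

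In the side routes the shares stand against 29.1% of all genes higher and 30.1% lower. In gluconeogenesis 1 gene (20%) was higher and 2 (40%) lower among 5 tested. G6pc3, the broadly expressed glucose 6-phosphatase, rose 8.48-fold (3.08 ± 0.24, limma adjusted p = 0.000663), and its partner, the glucose 6-phosphate carrier Slc37a4, fell 2.89-fold (−1.53 ± 0.11, limma adjusted p = 0.000542), as did the mitochondrial PEP carboxykinase Pck2 (−0.59 ± 0.06). In the pentose phosphate pathway 2 (20%) were higher and 4 (40%) lower among 10. H6pd, its enzyme of the endoplasmic reticulum, fell 3.68-fold (−1.88 ± 0.23, limma adjusted p = 0.00191), sedoheptulokinase, Shpk, 2.38-fold (−1.25 ± 0.33) and transketolase, Tkt, 1.87-fold (−0.90 ± 0.11), while transaldolase, Taldo1 (0.63 ± 0.21), and the PRPP synthetase Prps2 (0.42 ± 0.12) were higher. In the tricarboxylic acid cycle 5 (26.3%) were higher and 5 (26.3%) lower among 19, with a median of −0.05. Idh3a (1.04 ± 0.25), Sdhd (0.55 ± 0.22) and Ogdh (0.45 ± 0.11) rose, and Idh1 (−1.04 ± 0.17), Sucla2 (−0.64 ± 0.32) and Suclg2 (−0.57 ± 0.13) fell. Sucla2 kept its call in 11 of 14 alternative settings, with limma adjusted p up to 0.187. Among others it lost the call without array 2 or 4 (adjusted p = 0.0558 and 0.0694). By themselves 2 of its 3 features were called lower. Prps2 lost its call without array 1 or 2 (0.056 and 0.0568).

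Over the 8 lists together 22 genes were higher and 52 lower among 115 tested, or 64.3% called, against 59.2% of all genes in either direction, with a median of −0.28. The median absolute log2 ratio was 0.42 over these 115 genes and 0.22 over the 9 listed members. By direction, 45.2% of the 115 were lower and 19.1% higher, against 30.1% and 29.1% of all genes. With at least a 2-fold change 24 of the 115 passed (20.9%), against 14.4% of all genes.

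**Figure D4:**
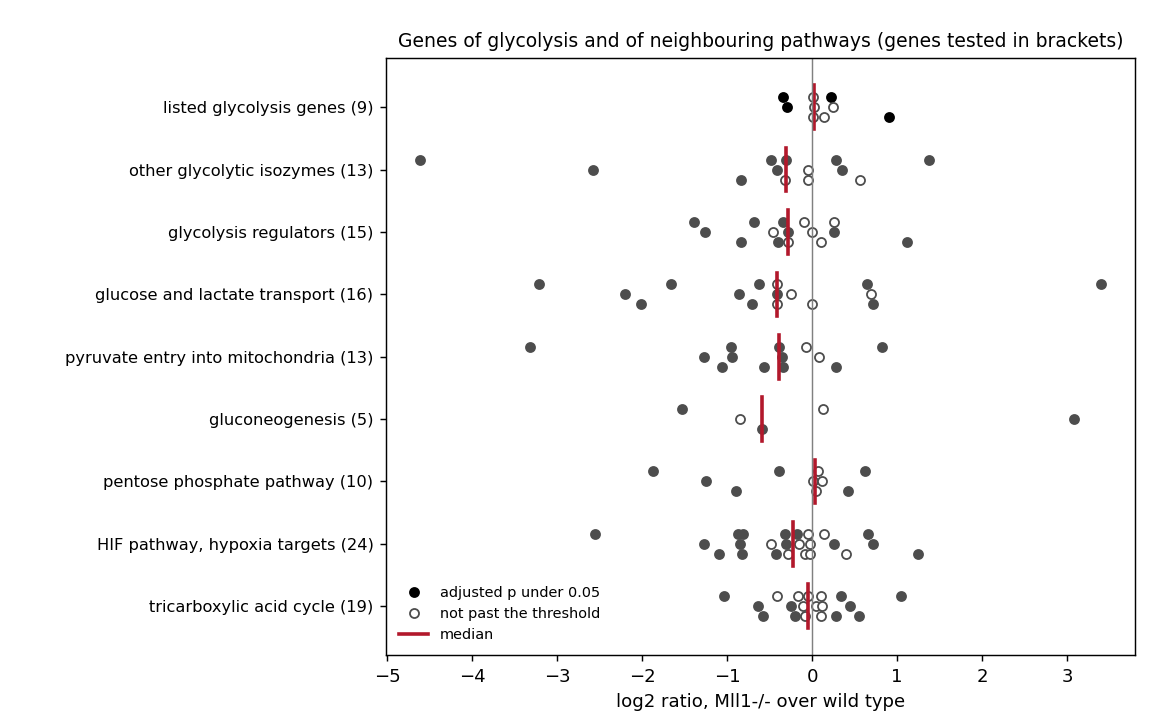
Log2 ratio of Mll1-/- over wild-type signal (horizontal axis) of each tested gene in the listed glycolysis enzymes and in 8 neighbouring lists (rows), filled where the adjusted p is under 0.05, with the list's median as a red line. The 9 listed genes lie between −0.34 and 0.90, and single genes of transport, pyruvate entry and gluconeogenesis, and Ldhb among the isozymes, lie beyond −3 or 3.

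Of 11 markers of fibroblasts, the labelled cell type, 9 had a value on every array. This does not show the cell type, since 14222 of 19087 genes with a singly named feature could be tested. Of the 9 markers 4 (44.4%) were higher and 4 (44.4%) lower in the Mll1-/- line. These and the following counts stand against 29.1% of all genes higher and 30.1% lower. Of markers of blood and macrophages 3 of 8 could be tested (2 lower), of epithelium 4 of 6 (1 lower), of endothelium 3 of 5 (1 higher and 1 lower) and of nerve and glia 2 of 6 (1 higher). Ratios give no level, so presence of these cells could not be judged, and their part in the glycolysis ratios was not tested.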

How the data were processed

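The members and gene lists were chosen with earlier results of these data known. Per the submitters' processing notes, Agilent Feature Extraction 10.1.1 was used. The authors deposited log2 ratios, 1 per feature and array. How they corrected background, normalized and left blanks, and the log base and direction, is not stated in the labels or headers. Base 2 was taken from the spread of values. Columns correlated positively (r from 0.72 to 0.85 over 29054 complete features) although dyes were swapped, so ratios had been turned one way, and they were used as deposited. Array medians over all features ran from −0.02 to 0.03.

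Features were named by the platform annotation (33653 with 1 symbol, 56 with several and 11309 with none). Features with 1 symbol and no blank were averaged per gene (24012 features, 14222 genes). The genotype difference came from lmFit and eBayes of limma 3.58.1 (R 4.3.3) with a dye term per gene, leaving 2 residual degrees of freedom, with Benjamini-Hochberg adjustment and a threshold of 0.05. The fit was tested on simulated data with independent noise on each array. That test does not show how the fit performs on arrays correlated in pairs, as these were. Channel intensities were not used here, so signal strength is unknown, and 4 arrays limit the precision. Named beside the 9 members are all other tested isozymes and, in each further list, up to 3 genes called each way. Alternatives were no dye term, centring, scaling, single features, feature medians, blanks allowed on 1 array, a robust trended prior, pairs of arrays averaged or as a random block (correlation 0.73), and each array left out. Promoter windows come from RefSeq on GRCm38.p6, and other coordinates are left out since the platform annotation states no build.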

Additional observations from a re-analysis of the deposited data

Results flagged for a closer look

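The highest or lowest of 4 arrays stood far from the other 3, relative to the range, in 2 of 82 sets of array values examined (gap over range past Dixon's 95% value), where chance flags about 1 in 20. For Ldha feature 5536, array 3 was at 0.15 and the nearest other array at 0.40. For Shpk, array 3 was at −1.74 and the nearest other array at −1.13.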

How the results depend on the processing

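Pfkp passed in all 14 alternatives (0.79 to 1.19, with its middle feature standing for single features, limma adjusted p from 0.00137 to 0.0344) and Pfkl in 13 (−0.35 to −0.33), failing without the dye term (−0.34, adjusted p = 0.0508). Hk2 passed in 9 of 14. It failed after averaging arrays 1 and 2, and 3 and 4 (−0.29, 0.0624) and without each array in turn (−0.31 to −0.28). Ldha passed in 5 of 14. It failed at an unchanged 0.22 without the dye term (adjusted p = 0.113), with blanks allowed on 1 array (0.0502), with arrays 1 and 2, and 3 and 4, averaged (0.127) or as a random block (0.115), as the lower of its 2 features (0.091, adjusted p = 0.221), and without each array in turn (0.17 to 0.28). Pgam1 passed after averaging arrays 1 and 4, and 2 and 3 (0.24, 0.0187). Signs turned among genes that did not pass: Aldoa without array 2 (−0.0092, range without 1 array −0.0092 to 0.053), Gapdh without array 3 or 4 (−0.22 and −0.14, range −0.22 to 0.24), Pgk1 without array 1 or 2 (−0.05 and −0.10, range −0.10 to 0.12), Pgam2 without array 3 or 4 (0.037 and 0.059, range −0.15 to 0.059) and Pklr without array 3 or 4 (0.099 and 0.03, range −0.20 to 0.099). The causes were not tested, apart from the fewer arrays when 1 is left out.

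The count of higher members was 1 instead of 2 without the dye term, with blanks allowed on 1 array, with arrays 1 and 2, and 3 and 4, averaged or as a random block, and without each array (1 to 1). The count of lower members was 1 instead of 2 without the dye term, with the same pairs averaged and without each array (1 to 1), and single features gave 2 of 27. With those pairs averaged the other lists gave 14 higher genes instead of 22, and all genes 2690 instead of 4140. Without 1 array all genes gave 2532 to 2860 higher ones. The median of the members ran from 0.018 to 0.12 over the 14 alternatives. Of the 49 other genes named by rule 45 were called, and 34 of these kept the call in all 14 alternatives. Outside the isozymes the rule named only called genes, those with the largest changes of each list. Most of these calls were therefore fixed by the rule, and the counts do not describe genes at large. Each ratio already pairs both genotypes on 1 array, so no further replicate pairing between groups applied.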
